A study of Mus musculus with 2 samples.

Results

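Collagen genes were followed through the fibroblast, endothelial, mural and adipocyte nuclei of mouse brown adipose tissue. The members were all genes whose symbol is Col, a number, the letter a and a number, which held for 44 of the 31053 genes listed. Brown adipose tissue of C57BL/6 mice was profiled by single-nucleus RNA sequencing in 2 libraries. The 1cyc library was made from mice 4 days past a transient, acute exposure to cold, and the TN library from mice housed at thermoneutrality, a warmth that calls for no extra heat production. Each library pooled 5 mice and held DAPI-sorted nuclei whose mouse of origin is not recorded. Each condition was thus 1 sample with no test between them, and an effect of condition cannot be told apart from one of library.

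Collagens are triple helices of 3 chains, which come from 1 gene or from several, and most are secreted to build the extracellular matrix. Fibrillar collagens form the fibres of connective tissue, and type IV collagens form the sheet of the basement membrane. Other families form beaded filaments, hexagonal networks, bridges on the surface of fibrils, or remain in the cell membrane. In fat, each adipocyte and each capillary is wrapped in a basement membrane, and fibroblasts lie in the spaces between them.

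The type IV genes lie in head-to-head pairs that are transcribed away from each other. Col4a1 and Col4a2, whose chains join in the most widespread type IV helix, overlap by 22 bases in the annotation used here. Col4a4 and Col4a3 lie 71 bases apart on chromosome 1 and Col4a6 and Col4a5 1308 bases apart on chromosome X. The promoter windows of Col4a1 and Col4a2 are shown because these genes overlap at their starts and their levels by class are set side by side. They run 250 bases before to 50 bases after the RefSeq start (GRCm38.p6), at chr8:11312777-11313076 on the minus strand for Col4a1 and chr8:11312555-11312854 on the plus strand for Col4a2. Capitals mark the 78 bases that both windows hold, each read on its own strand.
Col4a1: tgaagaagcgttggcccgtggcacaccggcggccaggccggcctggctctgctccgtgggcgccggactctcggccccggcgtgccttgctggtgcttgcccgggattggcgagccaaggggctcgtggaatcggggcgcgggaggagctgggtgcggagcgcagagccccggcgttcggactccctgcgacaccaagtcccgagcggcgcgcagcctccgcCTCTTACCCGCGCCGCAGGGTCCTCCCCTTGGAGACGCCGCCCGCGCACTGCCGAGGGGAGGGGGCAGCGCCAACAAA
Col4a2: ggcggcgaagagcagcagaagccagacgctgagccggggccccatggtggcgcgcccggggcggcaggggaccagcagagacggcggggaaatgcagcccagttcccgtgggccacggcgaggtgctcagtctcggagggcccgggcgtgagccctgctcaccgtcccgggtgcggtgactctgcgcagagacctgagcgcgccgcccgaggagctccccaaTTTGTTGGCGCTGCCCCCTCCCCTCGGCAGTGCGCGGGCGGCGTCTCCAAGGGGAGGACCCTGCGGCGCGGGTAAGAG

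The 2 start sites lie 21 bases apart. Each window held 1 CCAAT, counting both strands, of which neither lies wholly in the shared bases (the last base of the Col4a2 match does), and 37.4% of 32851 mouse promoter windows of this length hold one. GGGCGG was found on either strand once in the Col4a1 window and 3 times in the Col4a2 window, and the shared bases hold 1 match, and 35.7% of all windows hold it. TATAAA was in neither window, against 13.6% of all windows. Of the 44 genes, 35 had a window in the RefSeq table. Among these, 13 held CCAAT, 22 held GGGCGG and 5 held TATAAA. These are matches of letters only. Other collagen genes also lie next to each other. Col3a1 (chr1:45311538-45349706, plus strand) and Col5a2 (chr1:45374321-45503282, minus strand) lie tail to tail, 24614 bases apart in mm10, and Col6a2 and Col6a1 lie on the same strand of chromosome 10, 85161 bases apart. Of the genes the results turn on, Col5a3 is at chr9:20770050-20815067 (minus strand), Col15a1 at chr4:47208161-47313167 (plus), Col27a1 at chr4:63214004-63334991 (plus) and Col8a1 at chr16:57624258-57754737 (minus).

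The deposited libraries held 4321 barcodes with 2469900 UMIs in 1cyc and 2551 barcodes with 2745808 UMIs in TN. UMIs, the molecular identifiers, count each captured molecule once. Only 47.4% of 1cyc barcodes, against 96.7% of TN barcodes, had under 20% of their UMIs from mitochondrial genes and were kept. Each class was set by a minimum number of UMIs over 3 or 4 genes, none of them a collagen. A barcode that met more than 1 rule was counted in each class. The fibroblast class (Pdgfra, Dcn and Lama2) held 63 barcodes in 1cyc and 169 in TN. The endothelial class (Ptprb, Flt1 and Cyyr1) held 39 in 1cyc and 158 in TN, and the mural class, cells of the vessel wall (Postn, Trpc6 and Abcc9), held 8 in 1cyc and 32 in TN. The adipocyte class (Pparg, Acsl1, Pde3b and Ppara) held 1495 in 1cyc and 1864 in TN. In the fibroblast class 11 of 11 fibroblast markers had a UMI in both libraries. So did 9 of 9 endothelial markers in the endothelial class and 10 of 10 adipocyte markers in the adipocyte class. These counts include the genes of the rules and do not separate the classes. Adipocyte barcodes of both libraries also held UMIs of all 11 fibroblast, 9 endothelial and 11 mural markers. In the mural class 9 of 11 markers had a UMI in each library. The smooth muscle markers Acta2 and Myocd were at 0 in both. Myh11, another smooth muscle marker, had UMIs in both, in 2 of the 8 mural barcodes of 1cyc. In CPM (defined in the next paragraph), markers outside the rules were highest in their own class. Fibroblast ones had 5125 in 1cyc and 4995 in TN fibroblasts. Elsewhere they had at most 2704 in 1cyc and 2443 in TN, both in mural barcodes. Without the marker Ebf2 these mural values were 0 in 1cyc and 43.6, on 2 UMIs, in TN. Endothelial ones had 3415 in 1cyc and 3590 in TN endothelial barcodes, and at most 208 and 284 elsewhere. Mural ones had 7822 in 1cyc and 6130 in TN mural barcodes, and at most 584 and 553 elsewhere. Adipocyte ones had 2656 in 1cyc and 1787 in TN adipocytes, and at most 552 and 344 elsewhere. Lymphatic endothelial markers were at 0 of 4 in the fibroblast, endothelial and mural classes of both libraries. Barcodes that also met the adipocyte rule were 15.9% in 1cyc and 17.2% in TN of the fibroblast class, and 30.8% in 1cyc and 41.1% in TN of the endothelial class.

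Collagen transcripts were most abundant in fibroblast barcodes. Levels are given as CPM, the UMIs of a gene per 1000000 UMIs of the class, and values in parentheses are 95% intervals for counting error only. The 44 genes together made up 7188 CPM (6602 to 7813) of the 1cyc fibroblast class and 5641 CPM (5343 to 5950) of the TN fibroblast class. The mural class held 2414 CPM (1562 to 3564) in 1cyc and 2792 CPM (2329 to 3320) in TN. The endothelial class held 1381 CPM (1040 to 1797) in 1cyc and 1333 CPM (1188 to 1491) in TN, and the adipocyte class 751 CPM (704 to 801) in 1cyc and 907 CPM (864 to 952) in TN. The fibroblast interval lay above those of the other classes in both libraries. The mural and endothelial intervals overlapped in 1cyc and did not overlap in TN.

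At equal depth the share of barcodes with a collagen UMI was also highest in fibroblasts. With each barcode thinned to 500 UMIs, 94.9% of 1cyc (85.9 to 98.9) and 90.5% of TN fibroblast barcodes (85.1 to 94.5) held at least 1 collagen UMI. The thinned share was 28.8% (25.9 to 31.8) for 1cyc and 30.1% (28.0 to 32.2) for TN adipocyte barcodes, after 571 shallower 1cyc barcodes were left out. Endothelial barcodes gave 37.1% in 1cyc (21.5 to 55.1) and 43.0% in TN (35.2 to 51.1), and mural barcodes 87.5% in 1cyc (47.3 to 99.7) and 59.4% in TN (40.6 to 76.3). Without thinning, the shares were 100% in 1cyc and 97.6% in TN for fibroblast barcodes and 39.1% in 1cyc and 44.4% in TN for adipocyte barcodes. They were 53.8% in 1cyc and 67.7% in TN for endothelial barcodes and 100% in 1cyc and 93.8% in TN for mural barcodes.

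Of the 44 genes, 25 reached 20 UMIs over the 4 classes and both libraries and are described one by one. The other 19 had at most 19 UMIs. They were Col2a1, Col4a6, Col6a4, Col6a5, Col7a1, Col8a2, Col9a1, Col9a2, Col9a3, Col10a1, Col11a1, Col11a2, Col13a1, Col16a1, Col17a1, Col22a1, Col24a1, Col25a1 and Col26a1. Several of these, among them Col2a1 and Col10a1, are known from cartilage. Col2a1, Col9a2 and Col10a1 had no UMI in any deposited barcode.

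A gene was taken to lead in a class where its CPM was highest there and at least 2-fold over the next class in both libraries. By this rule 13 of the 25 genes (52.0%) led in fibroblast barcodes, against 3.27% of 10314 genes with 20 UMIs or more. None led in endothelial, mural or adipocyte barcodes, where 5.24%, 2.41% and 5.84% of all these genes led. The other 12 collagen genes led in no class. The 13 were Col1a1, Col1a2, Col3a1, Col5a1, Col4a3, Col4a4, Col6a1, Col6a2, Col6a3, Col6a6, Col14a1, Col15a1 and Col18a1. The rule asks nothing of the counting error. The interval of the fold over the next class held 1 in TN for Col5a1, Col4a4, Col6a1 and Col6a2, and in both libraries for Col18a1. The 8 mural barcodes of 1cyc had too few UMIs for low genes, with 3 UMIs equal to 290 CPM. Without the mural class, Col5a2 and Col5a3 also led in fibroblasts, which made 15 genes against 5.35% of all genes, and Col8a1 led in endothelial and Col23a1 in adipocyte barcodes.

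**Figure D1:**
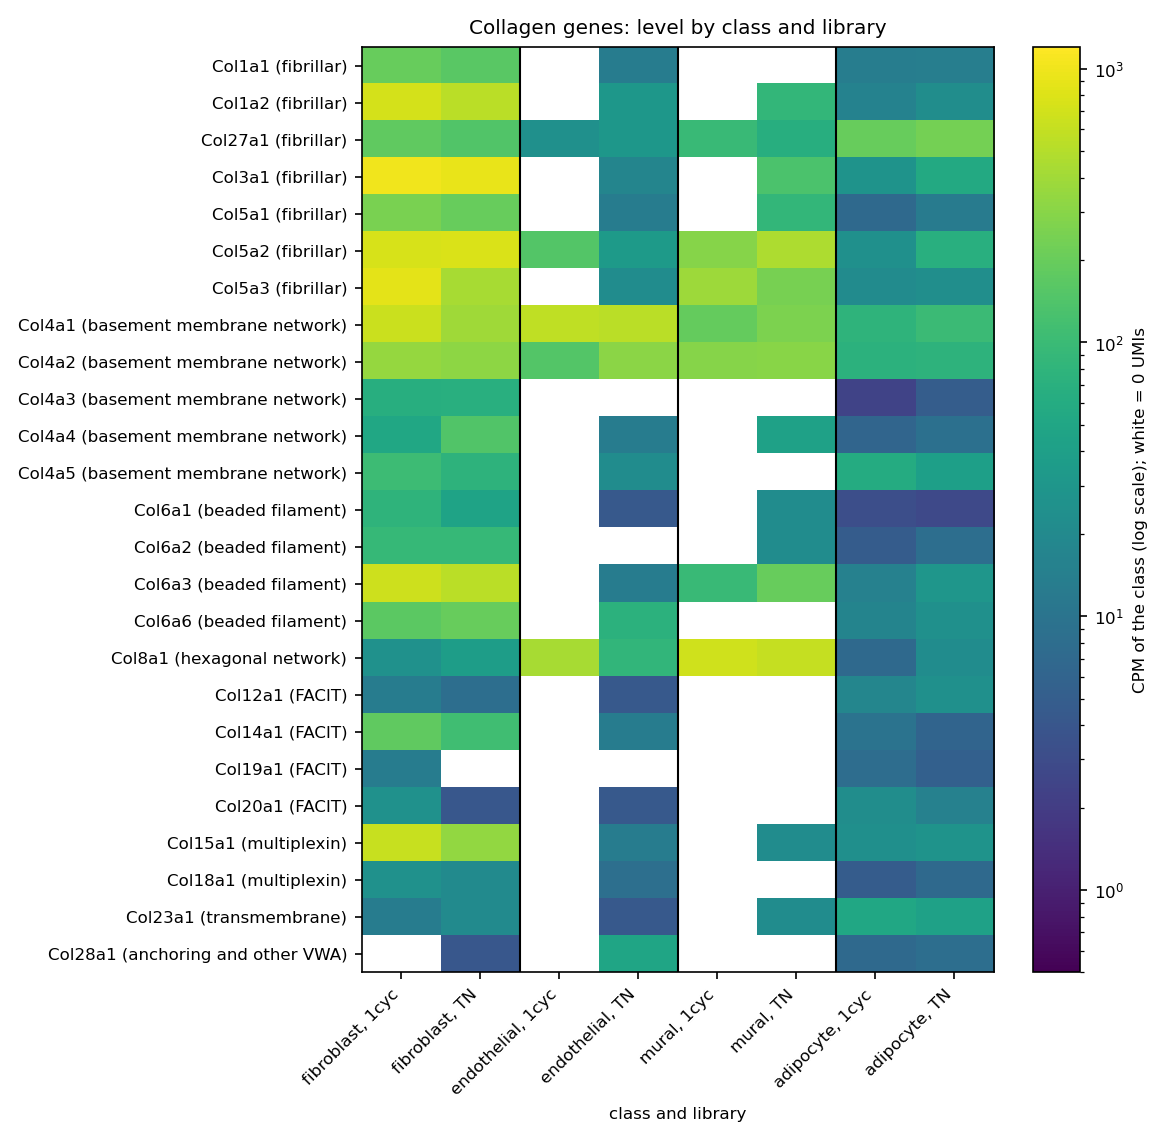
Level of the 25 collagen genes with 20 UMIs or more, in CPM on a log colour scale, in the 4 classes (columns, 1cyc left of TN) by collagen family (rows). White cells had 0 UMIs, most of them in the 1cyc endothelial and mural classes, which were the shallowest. The brightest cells lie in the fibroblast columns, and Col4a1, Col4a2 and Col8a1 are also bright in endothelial or mural columns.

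The fibrillar genes made up the largest share of the fibroblast collagen, 4022 CPM (3587 to 4496) in 1cyc and 3191 CPM (2969 to 3427) in TN over 11 genes. Col3a1, the single chain of type III collagen, stood at 1025 CPM in 1cyc and 935 CPM in TN fibroblasts. In the other classes its measured level reached at most 27.2 CPM in 1cyc and 131 CPM in TN. In 1cyc it had 0 UMIs in endothelial and mural barcodes, where up to 92.6 CPM and 356 CPM lie within the counting error. Col3a1 was 37.7-fold (24.9 to 58.2) over adipocytes, the next class, in 1cyc and 7.15-fold (3.23 to 19.7) over mural barcodes in TN. The 1cyc interval does not bound the fold over endothelial or mural barcodes. A Col3a1 UMI was in 54.0% of 1cyc and 50.9% of TN fibroblast barcodes. In endothelial barcodes, a class that should lack it, the share was 0% in 1cyc and 2.53% in TN. Median depths were 857 UMIs in 1cyc and 1225.5 UMIs in TN endothelial barcodes, and 1186 UMIs in 1cyc and 1191 UMIs in TN fibroblast barcodes. Thinned to 500 UMIs, Col3a1 was in 33.9% of 1cyc and 30.2% of TN fibroblast barcodes, and in 0 of 35 barcodes in 1cyc, which allows a share of up to 8.57%, and 0.633% in TN of the endothelial class.

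Col1a2, a chain of type I collagen, the main collagen of skin and tendon, stood at 727 CPM in 1cyc and 541 CPM in TN fibroblasts. Its partner Col1a1 stood at 195 CPM in 1cyc and 164 CPM in TN fibroblasts. Per kilobase of gene, Col1a2 had 19.8 CPM in 1cyc and 14.7 CPM in TN, and Col1a1 11.6 CPM in 1cyc and 9.72 CPM in TN, below Col3a1 at 26.9 CPM in 1cyc and 24.5 CPM in TN. These 3 genes, Col5a3 and Col6a3 were the 5 highest per kilobase of gene in fibroblasts of both libraries. Per kilobase of exon the order changed, and Col5a3 came first in 1cyc (130 CPM) and Col3a1 in TN (95.3 CPM).

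The type V chains, which join type I fibrils and limit their width, were highest in fibroblasts, with mural barcodes next in TN. Col5a1 stood at 247 CPM in 1cyc and 197 CPM in TN fibroblasts, and at 87.3 CPM on 4 UMIs in the next class of TN, the mural one. Col5a2 had 753 CPM in 1cyc and 776 CPM in TN fibroblasts and 290 CPM in 1cyc and 458 CPM in TN mural barcodes. Col5a3 had 882 CPM in 1cyc and 432 CPM in TN fibroblasts and 386 CPM in 1cyc and 240 CPM in TN mural barcodes. For Col5a3 the mural values rest on 4 UMIs in 1cyc and 11 UMIs in TN. The intervals of the fibroblast-to-mural ratio of Col5a3 held 1 in both libraries (2.28-fold, 0.852 to 8.62, in 1cyc and 1.80-fold, 0.965 to 3.72, in TN).

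The beaded filament genes of type VI collagen stood together in fibroblasts at 999 CPM (788 to 1249) in 1cyc and 877 CPM (762 to 1004) in TN. Col6a3 stood at 662 CPM in 1cyc and 541 CPM in TN. Col6a1 stood at 77.9 CPM in 1cyc and 46.1 CPM in TN, and Col6a2 at 90.8 CPM in 1cyc and 92.3 CPM in TN. Col6a6, an alternative to the Col6a3 chain, stood at 169 CPM in 1cyc and 197 CPM in TN. Col6a6 was also present in TN endothelial barcodes at 74.1 CPM (43.1 to 119), where 13 of 158 barcodes held it, but at 0 UMIs in the 39 endothelial barcodes of 1cyc, where up to 92.6 CPM would be within the counting error.

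Col15a1, a proteoglycan collagen found next to basement membranes, stood at 623 CPM in 1cyc and 340 CPM in TN fibroblasts. In 1cyc it had 0 UMIs in endothelial and mural barcodes, where up to 92.6 CPM and 356 CPM lie within the counting error. Col15a1 was 26.0-fold (16.1 to 42.5) over adipocytes, the next class by measured level, in 1cyc and 12.6-fold (8.73 to 18.3) in TN. Its relative Col18a1, the source of the fragment endostatin, rested on 2 UMIs in 1cyc and 5 UMIs in TN fibroblasts. Col14a1, which sits on the surface of fibrils, stood at 182 CPM in 1cyc and 109 CPM in TN fibroblasts. Its measured level was no more than 9.59 CPM in 1cyc and 13.1 CPM in TN in the other 3 classes. The 0 counts among these allow up to 92.6 CPM in 1cyc endothelial barcodes. In mural barcodes they allow up to 356 CPM in 1cyc and 80.5 CPM in TN. Barcodes of no class held Col14a1 at 92.5 CPM in 1cyc and 49.4 CPM in TN.

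The type IV genes split by pair. Col4a3 and Col4a4, the head-to-head pair known from the basement membrane of the kidney, led in fibroblasts. Col4a3 stood at 64.9 CPM in 1cyc and 67.1 CPM in TN fibroblasts and at 0 UMIs in the endothelial and mural classes of both libraries. These 0 counts allow up to 92.6 CPM in 1cyc and 16.1 CPM in TN endothelial barcodes. In mural barcodes they allow up to 356 CPM in 1cyc and 80.5 CPM in TN. Col4a4 stood at 51.9 CPM in 1cyc and 147 CPM in TN fibroblasts. The Col4a1 and Col4a2 pair was instead shared by fibroblast, endothelial and mural barcodes. Col4a1 stood in endothelial barcodes at 577 CPM (366 to 866) in 1cyc and 536 CPM (445 to 639) in TN, and in fibroblasts at 649 CPM (482 to 855) in 1cyc and 398 CPM (322 to 487) in TN. In mural barcodes Col4a1 had 193 CPM in 1cyc and 262 CPM in TN, and in adipocytes 79.1 CPM (64.3 to 96.3) in 1cyc and 100 CPM (86.1 to 116) in TN. In 1cyc the fibroblast level of Col4a1 was 1.12-fold (0.673 to 1.93) that of endothelial barcodes, an interval that holds 1. In TN the order was the other way, with endothelial barcodes at 1.34-fold (1.02 to 1.78) the fibroblast level.

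Col4a2 was also shared by these classes, in another order. It stood at 350 CPM in 1cyc and 315 CPM in TN fibroblasts, 290 CPM in 1cyc and 305 CPM in TN mural barcodes, and 151 CPM in 1cyc and 314 CPM in TN endothelial barcodes. The adipocyte level of Col4a2 was 74.3 CPM in 1cyc and 75.9 CPM in TN. In TN the fibroblast level of Col4a2 was 1.00-fold (0.716 to 1.41) the endothelial level, and in 1cyc it was 1.21-fold (0.372 to 6.23) the mural level. Col4a5, on the X chromosome and known to join Col4a3 and Col4a4, had its highest measured levels in fibroblast and adipocyte barcodes. It stood at 104 CPM in 1cyc and 75.5 CPM in TN fibroblasts, at 0 UMIs in 1cyc and 21.8 CPM in TN endothelial barcodes, and at 0 UMIs in mural barcodes of both libraries. Within the counting error of these 0 counts lie up to 92.6 CPM in 1cyc endothelial barcodes, and 356 CPM in 1cyc and 80.5 CPM in TN mural barcodes. Its level was 59.9 CPM in 1cyc and 40.2 CPM in TN adipocytes, or 57.7% in 1cyc and 53.2% in TN of the fibroblast level. Col4a6, its head-to-head neighbour, had 10 UMIs in all 4 classes.

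Col8a1, a hexagonal network collagen known from vessel walls and the cornea, was highest in mural barcodes in both libraries. It stood there at 676 CPM (272 to 1393) in 1cyc and 611 CPM (406 to 883) in TN, with 4 of 8 barcodes in 1cyc and 14 of 32 in TN holding a UMI. In fibroblasts it stood at 26.0 CPM in 1cyc and 37.7 CPM in TN. In TN Col8a1 was 7.38-fold (3.98 to 14) over the endothelial class. In 1cyc it was 1.58-fold (0.555 to 4.02) over it, where 17 endothelial UMIs came from 2 barcodes and 13 of them from 1. Col13a1, a membrane collagen with 19 UMIs in all, had 12 of them in mural barcodes, 4 in 1cyc (386 CPM) and 8 in TN (175 CPM). Col28a1 had its highest level in TN endothelial barcodes, 47.9 CPM (23.9 to 85.7), over 10 barcodes, and 0 UMIs in 1cyc endothelial barcodes.

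**Figure D2:**
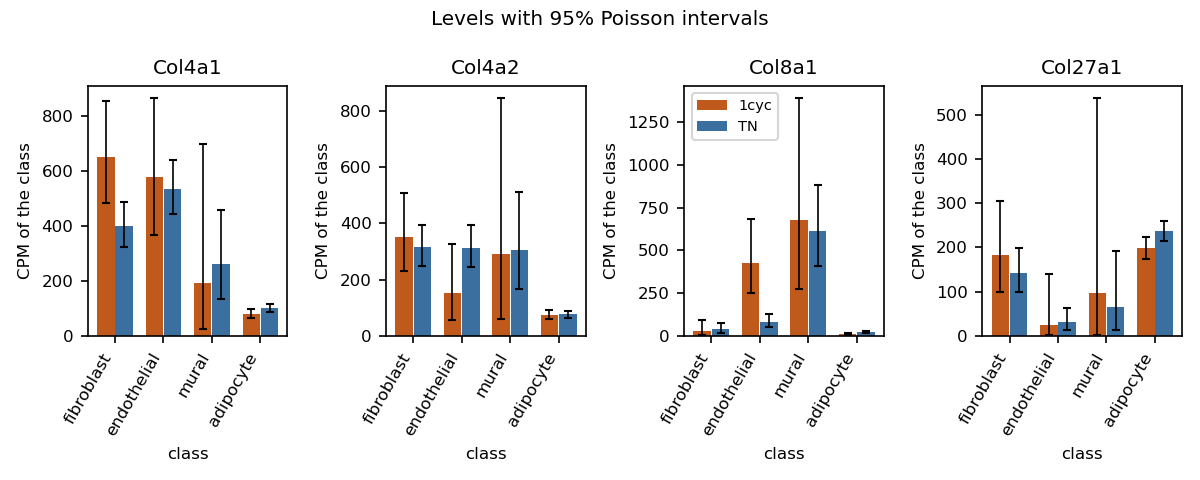
CPM of Col4a1, Col4a2, Col8a1 and Col27a1 in the 4 classes, 1cyc bars left of TN bars, with 95% Poisson intervals that cover counting error only. Col4a1 and Col4a2 lie lowest in adipocytes, Col8a1 stands highest in mural barcodes, and Col27a1 in adipocytes (198 CPM in 1cyc and 236 CPM in TN). Each panel has its own scale.

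A few genes had adipocyte levels near or above their fibroblast levels. Col27a1, a minor fibrillar collagen known from cartilage, stood in adipocytes at 198 CPM (174 to 224) in 1cyc and 236 CPM (214 to 259) in TN. The fibroblast level of Col27a1 was 182 CPM (99.3 to 305) in 1cyc and 143 CPM (98.7 to 199) in TN. Col27a1 was the highest collagen of the adipocyte class both per kilobase of gene (1.64 CPM in 1cyc and 1.95 CPM in TN) and per kilobase of exon (15.2 CPM in 1cyc and 18.1 CPM in TN). Thinned to 500 UMIs, it was in 10.3% of 1cyc and 11.4% of TN adipocyte barcodes, against 2.86% of 1cyc and 1.27% of TN endothelial barcodes. The thinned share in fibroblast barcodes was 11.9% (4.91 to 22.9) in 1cyc, above that of adipocytes, and 6.51% (3.29 to 11.3) in TN. Without thinning these shares were 13.8% of 1cyc and 18.1% of TN adipocyte barcodes at median depths of 653 UMIs in 1cyc and 789.5 UMIs in TN, and 2.56% of 1cyc and 3.16% of TN endothelial barcodes. In the deeper fibroblast barcodes they were 19.0% in 1cyc and 16.6% in TN.

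Col23a1, a membrane collagen, stood at 51.1 CPM in 1cyc and 42.4 CPM in TN adipocytes, and at 13 CPM on 1 UMI in 1cyc and 21.0 CPM on 5 UMIs in TN fibroblasts. Col12a1 and Col20a1 belong to the family that decorates fibrils. Col12a1 had 17.6 CPM in 1cyc and 24.8 CPM in TN adipocytes, and Col20a1 22.4 CPM in 1cyc and 15.4 CPM in TN adipocytes. Their fibroblast levels rested on 1 or 2 UMIs per library. Col19a1 had 10 adipocyte UMIs in each library and 1 fibroblast UMI in all.

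Adipocyte levels were set against fibroblast levels for each gene. Col28a1 in 1cyc and Col19a1 in TN had adipocyte UMIs but 0 fibroblast UMIs, so no such share could be given for them. Over the rest of the 25 genes, the adipocyte level was a median 8.46% of the fibroblast level in 1cyc (2.20% to 394%). In TN it was 8.90% (4.17% to 367%). Of the 25 genes, 13 in each library had an adipocyte level under 10% of the fibroblast level, as did 4.66% of all genes in 1cyc and 2.48% in TN. The 8 fibroblast markers that set no class, summed, had an adipocyte level of 27.9% (25 to 31.1) of the fibroblast level in 1cyc and 26.8% (25 to 28.8) in TN. Most of it was Ebf2, which brown adipocytes also use and which stood at 1299 CPM in 1cyc and 1143 CPM in TN adipocytes. Without Ebf2, a step chosen once the data were seen, the other 7 markers stood at 4.26% (3.47 to 5.23) of the fibroblast level in 1cyc and 7.32% (6.42 to 8.34) in TN. Col4a1 was at 12.2% in 1cyc and 25.1% in TN and Col4a2 at 21.2% in 1cyc and 24.1% in TN. Both genes had shares below that of the 8 markers and intervals above that of the 7 markers, in both libraries. The interval of Col27a1 lay above both marker shares in both libraries. That of Col4a5 lay above the 7 markers in both libraries and above the 8 markers in TN alone. Endothelial markers that set no class, from a class that also held Col4a1 and Col4a2, stood at 76.7 CPM in 1cyc and 284 CPM in TN adipocytes, and their part in these shares was not tested. With barcodes that met the adipocyte rule alone, the share was 9.29% (6.24 to 14) in 1cyc and 16.3% (11.7 to 22.8) in TN for Col4a1 and 134% in 1cyc and 167% in TN for Col27a1. Under the same limit Col3a1 was at 1.90% in 1cyc and 3.42% in TN.

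**Figure D3:**
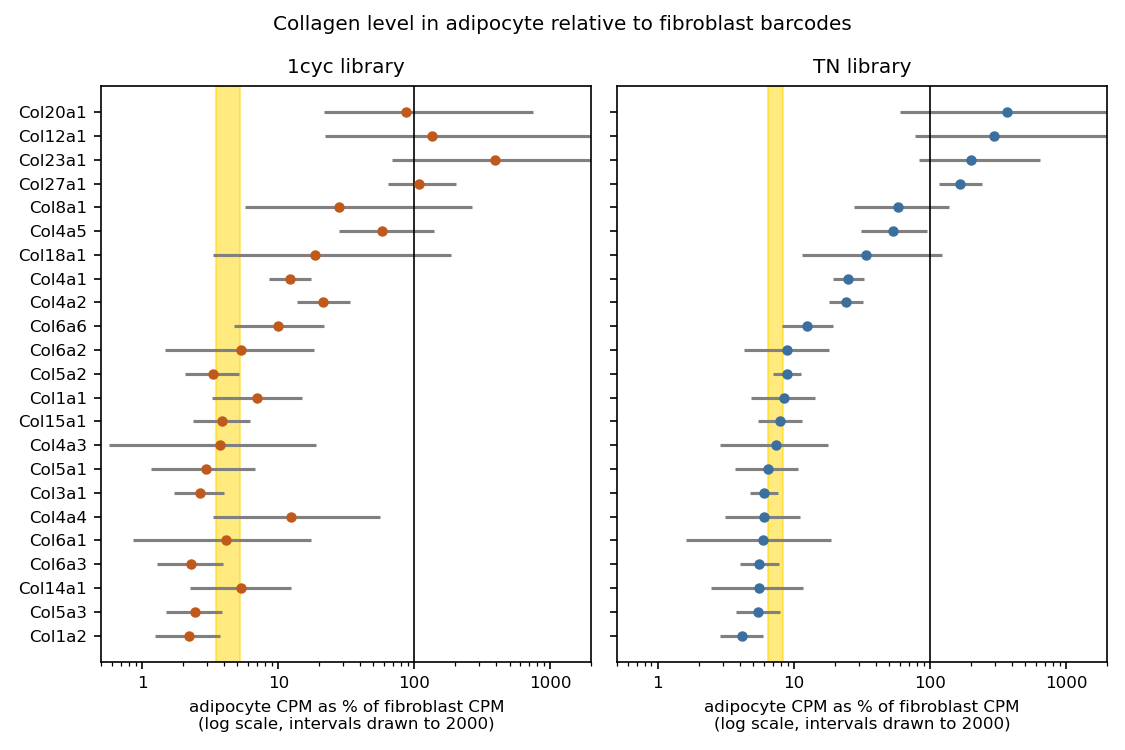
Adipocyte CPM as a percentage of fibroblast CPM (log axis), 1cyc left and TN right, with 95% counting intervals. The yellow band is the same share for 7 fibroblast markers without Ebf2 (4.26% in 1cyc, 7.32% in TN), and with Ebf2 that share was 27.9% in 1cyc and 26.8% in TN. Genes that led in fibroblasts mostly lie near the band, and Col4a1, Col4a2, Col4a5, Col27a1 and Col23a1 to the right of it. Col19a1 and Col28a1, with 0 UMIs in fibroblasts of 1 library, are left out.

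Within the fibroblast class collagens differed between barcodes that carried different fibroblast markers. Barcodes with a UMI of Pi16 or Dpp4, a marker known from early progenitors in fat, were 7 in 1cyc and 19 in TN. Barcodes with a UMI of Bmper or Smoc2 were 44 in 1cyc and 111 in TN, and barcodes with UMIs of both pairs are in neither set. Summed collagen of Pi16 and Dpp4 barcodes was 0.613-fold (0.437 to 0.840) that of Bmper and Smoc2 barcodes in 1cyc and 1.01-fold (0.855 to 1.18) in TN. Col15a1 had 0 UMIs in the Pi16 and Dpp4 barcodes of both libraries. In Bmper and Smoc2 barcodes it had 42 UMIs in 1cyc (760 CPM) and 69 UMIs in TN (432 CPM). Set against a floor of 3 UMIs per library and subset, Col15a1 was at least 2.33-fold lower in the 1cyc and at least 4.67-fold lower in the TN Pi16 and Dpp4 barcodes. Col6a3 had 0 UMIs in 1cyc and 7 UMIs in TN in Pi16 and Dpp4 barcodes, against 46 in 1cyc and 107 in TN in Bmper and Smoc2 barcodes. Its TN level in Pi16 and Dpp4 barcodes was 0.322-fold (0.127 to 0.688) that in Bmper and Smoc2 barcodes.

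The Col4a1 and Col4a2 pair was on the same side. Col4a1 had 0 UMIs in 1cyc and 3 in TN in Pi16 and Dpp4 barcodes, against 40 in 1cyc and 75 in TN in Bmper and Smoc2 barcodes. Col4a2 had 0 UMIs in 1cyc and 3 in TN, against 22 in 1cyc and 65 in TN. In TN the ratio of the first to the second subset was 0.197 (0.0398 to 0.599) for Col4a1 and 0.227 (0.0457 to 0.695) for Col4a2. Col5a3 was at 0.214-fold (0.0253 to 0.811) in 1cyc and 0.487-fold (0.203 to 1.01) in TN. Col27a1 had 0 UMIs in Pi16 and Dpp4 barcodes of both libraries and 12 in 1cyc and 31 in TN in Bmper and Smoc2 barcodes.

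Col3a1 and Col14a1 lay on the other side. Col3a1 stood in Pi16 and Dpp4 barcodes at 1519 CPM in 1cyc and 1881 CPM in TN, and in Bmper and Smoc2 barcodes at 868 CPM in 1cyc and 751 CPM in TN. The ratio was 1.75 (0.891 to 3.23) in 1cyc and 2.51 (1.81 to 3.44) in TN. Col14a1 had 8 UMIs in 1cyc and 7 UMIs in TN in Pi16 and Dpp4 barcodes, against 3 UMIs in each library in the far larger Bmper and Smoc2 subset. Its ratio was 16.0 (3.84 to 93.6) in 1cyc and 11.5 (2.63 to 68.9) in TN. Col1a1 had a ratio of 3.83 (1.76 to 8.16) in TN and 0 UMIs against 14 in 1cyc. Col1a2 was alike in both subsets within the counting error, at 1.5 (0.635 to 3.17) in 1cyc and 1.03 (0.584 to 1.73) in TN. These subsets were small, and all ratios compare barcodes of single libraries.

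**Figure D4:**
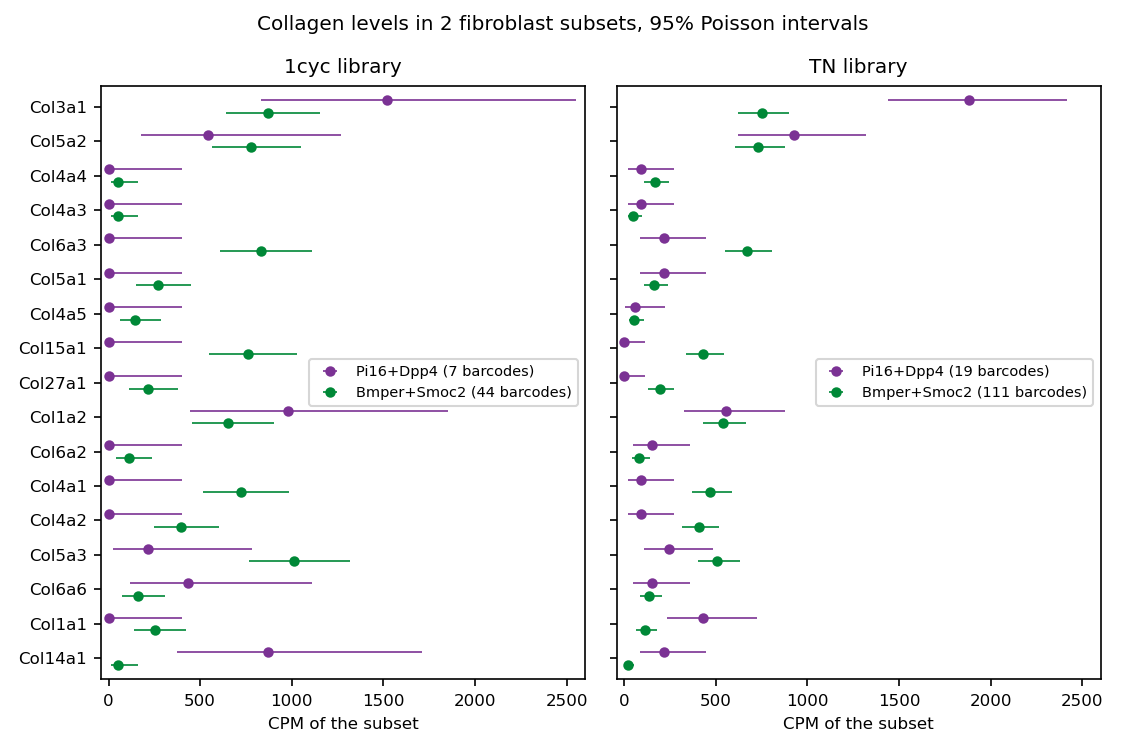
CPM of 17 collagen genes in fibroblast barcodes with Pi16 or Dpp4 (purple) and with Bmper or Smoc2 (green), 1cyc left and TN right, with 95% Poisson intervals. In both libraries Col15a1, Col6a3, Col4a1, Col4a2 and Col5a3 lie higher in the green subset and Col3a1 and Col14a1 higher in the purple one.

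Adipocyte barcodes also differed among themselves. Barcodes with at least 2 UMIs of Nnat and Slc7a10, an amino acid transporter known from white adipocytes, were 28 in 1cyc and 134 in TN, and barcodes with none were 1431 in 1cyc and 1622 in TN. Col15a1 was 9.61-fold (3.70 to 22.4) higher in the first set in 1cyc and 4.78-fold (2.45 to 9.04) in TN. Col27a1 had 0 UMIs in the first set in 1cyc against 243 in the second, which is at least 3.07-fold lower by the floor of 3 UMIs. In TN Col27a1 had 12 UMIs against 398, a ratio of 0.237 (0.122 to 0.419). Adipocyte barcodes with and without a UMI of Ucp1, the uncoupling protein of brown fat, had like summed collagen. The ratio of those with a UMI to those without was 0.894 (0.752 to 1.06) in 1cyc and 0.928 (0.776 to 1.10) in TN.

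Between the conditions, the summed collagen of fibroblast barcodes was 1.27-fold (1.15 to 1.41) higher in 1cyc than in TN. Relative to the median gene of the class, whose ratio was 1.05, it was 1.21-fold (1.10 to 1.34). Scaling by TMM and by DESeq2 size factors moved the median log2 ratio of all genes in fibroblasts by -0.25 and -0.31, and the summed ratio was then 1.07 (0.966 to 1.18) and 1.03 (0.931 to 1.14). Under both of these scalings the interval held 1. Of 17 collagen genes with 20 UMIs or more in the class, 12 had a CPM ratio above 1 and 5 below. Either of these scalings puts Col3a1 (log2 ratio 0.13 in CPM) and Col4a2 (0.16), among the 12, below 1. The share of all genes above 1 is not given. The median log2 ratio of the 17 collagen genes in CPM was 0.29, against 0.07 over all 2835 genes with UMIs in both libraries. Haemoglobin transcripts were 0.0156% of the UMIs in 1cyc and 3.70% in TN fibroblast barcodes, and the mural markers that set no class 584 CPM in 1cyc and 336 CPM in TN. Their part in these ratios was not tested.

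Only Col5a3 was at least 2-fold higher in 1cyc fibroblasts, 1 of 17 genes, against 6.02% of 2839 genes. Its levels were 882 CPM in 1cyc and 432 CPM in TN, a ratio of 2.04 (1.48 to 2.80). It was under 2-fold with barcodes of one class only, with a mitochondrial limit of 5%, with totals free of mitochondrial, haemoglobin and class genes, and with both other scalings. Col15a1 had a ratio of 1.83 (1.26 to 2.65) and Col4a1 of 1.63 (1.13 to 2.32). Relative to the median gene these were 1.94-fold for Col5a3, 1.74-fold for Col15a1 and 1.55-fold for Col4a1. The 3 genes are among those that lay higher in Bmper and Smoc2 barcodes. Within Bmper and Smoc2 barcodes the ratio of 1cyc to TN was 2.0 (1.40 to 2.84) for Col5a3, 1.76 (1.17 to 2.62) for Col15a1 and 1.54 (1.02 to 2.29) for Col4a1. This subset was 69.8% of 1cyc and 65.7% of TN fibroblast barcodes. It held 56 of 68 Col5a3 UMIs in 1cyc and 81 of 103 in TN, so its ratios are not independent of those of the class. The part of the make-up of the class in these ratios was not tested.

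Col4a4 was the 1 gene at least 2-fold lower in 1cyc fibroblasts, against 6.41% of all genes. It had 4 UMIs in 1cyc and 35 in TN, a ratio of 0.354 (0.0913 to 0.989). Its head-to-head neighbour Col4a3 had 5 UMIs in 1cyc and 16 in TN, a ratio of 0.967 (0.277 to 2.76). Col3a1 (1.10, 0.837 to 1.42), Col5a2 (0.970, 0.709 to 1.31) and Col6a3 (1.22, 0.867 to 1.70) had intervals that held 1, as did Col1a2 (1.34, 0.963 to 1.85).

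In adipocyte barcodes the summed ratio was 0.828 (0.763 to 0.898), and 0.787 (0.726 to 0.853) relative to the median gene. Of 22 collagen genes tested there, 5 had a ratio above 1 and 17 below, with a median log2 ratio of -0.30 against 0.07 over 9347 genes. The share of all genes below 1 is not given. No collagen gene was at least 2-fold higher in 1cyc adipocytes, against 4.82% of 9350 genes. Col3a1, Col5a2 and Col8a1 were at least 2-fold lower, against 5.60%. Col3a1 stood at 27.2 CPM in 1cyc and 56.7 CPM in TN, a ratio of 0.479 (0.315 to 0.713). In TN 17 of its 103 UMIs came from 1 barcode, whose part in the ratio and the 2-fold call was not tested. Col5a2 stood at 24.8 CPM in 1cyc and 68.8 CPM in TN, a ratio of 0.360 (0.235 to 0.537), and Col8a1 at 7.19 CPM in 1cyc and 22.0 CPM in TN, a ratio of 0.327 (0.139 to 0.684).

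Markers of other cell types differed between the libraries in adipocyte barcodes, in both directions. The 8 fibroblast markers had a ratio of 1.06 (1.00 to 1.13), with Ebf2 at 1.14 (1.06 to 1.21). The 7 fibroblast markers without Ebf2 stood at 129 CPM in 1cyc and 198 CPM in TN adipocytes, a ratio of 0.654 (0.540 to 0.789), with 6 of 7 lower and Mfap5 higher in 1cyc, while in fibroblasts their ratio was 1.12 (0.962 to 1.31). The endothelial markers had a ratio of 0.270 (0.215 to 0.337), and mural ones stood at 101 CPM in 1cyc and 160 CPM in TN. All of these markers had a UMI in adipocytes of both libraries. Skeletal muscle markers stood at 406 CPM in 1cyc and 77.6 CPM in TN, macrophage markers at 59.1 CPM in 1cyc and 60.5 CPM in TN, and lymphoid markers at 33.6 CPM in each. Schwann cell markers stood at 79.9 CPM in 1cyc and 117 CPM in TN, and erythroid markers at 3421 CPM in 1cyc and 24189 CPM in TN. The part of these markers in the collagen ratios was not tested. With barcodes that met the adipocyte rule alone, the summed ratio was 0.939 (0.858 to 1.03) and that of Col3a1 was 0.728 (0.443 to 1.17). Col5a2 (0.389, 0.227 to 0.639) and Col8a1 (0.451, 0.128 to 1.30) remained at least 2-fold lower, Col8a1 with an interval that held 1. Under that limit the ratio of Col4a1 was 1.11 (0.810 to 1.53) and that of Col4a2 was 1.35 (0.989 to 1.85), against 0.790 and 0.979 with all adipocyte barcodes.

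None of Col27a1, Col4a5, Col23a1, Col20a1 and Col12a1 was 2-fold apart between the libraries in adipocytes. Col8a1, which was lower at 0.327-fold, had an adipocyte level of 27.7% in 1cyc and 58.3% in TN of its fibroblast level. Col27a1 had 248 UMIs in 1cyc and 429 in TN, a ratio of 0.840 (0.715 to 0.984). Col4a5 had 75 UMIs in 1cyc and 73 in TN, a ratio of 1.49 (1.07 to 2.09). Col23a1 had a ratio of 1.21 (0.853 to 1.70), Col20a1 of 1.45 (0.829 to 2.54) and Col12a1 of 0.710 (0.406 to 1.21), and all 3 intervals held 1.

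**Figure D5:**
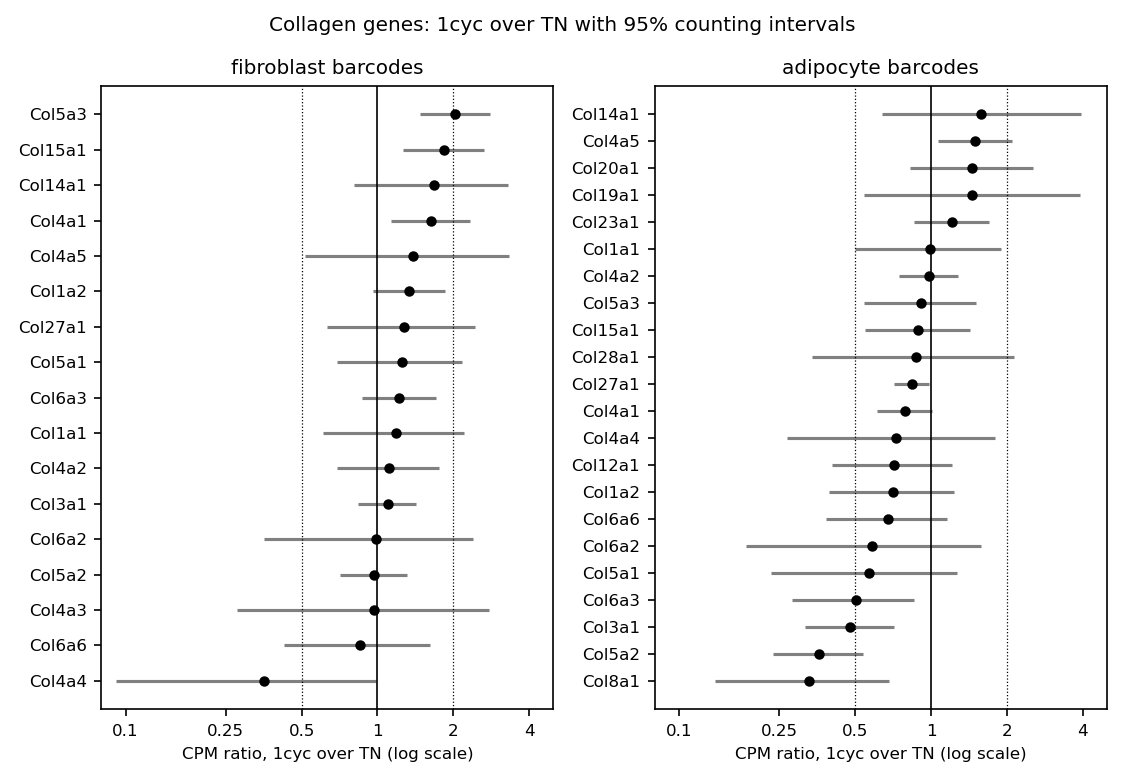
CPM ratio of 1cyc over TN (log axis) for the collagen genes with 20 UMIs or more in fibroblast (left, 17 genes) and adipocyte barcodes (right, 22 genes), with 95% counting intervals. The solid line is 1 and the dotted lines mark 2-fold. In fibroblasts 12 genes lie above 1, and in adipocytes 17 lie below it. The median log2 ratio of all genes was 0.07 in both classes, and the fibroblast count depends on the scaling.

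Endothelial and mural barcodes gave few ratios. In endothelial barcodes the summed ratio was 1.04 (0.763 to 1.38). Of 3 genes tested there, Col8a1 was at least 2-fold higher in 1cyc (5.16, 2.52 to 10.5), against 7.09% of 2639 genes, but 13 of its 17 UMIs in 1cyc came from 1 barcode. Col4a2 was at least 2-fold lower, at 6 UMIs in 1cyc and 72 in TN (0.480, 0.171 to 1.10), against 11.7% of all genes, and Col4a1 had a ratio of 1.08 (0.659 to 1.69). With barcodes that met the endothelial rule alone, the ratio was 0.559 (0.144 to 1.57) for Col4a2, 0.629 (0.275 to 1.27) for Col4a1 and 7.49 (2.88 to 20.8) for Col8a1, so that Col4a2 was no longer 2-fold apart and Col4a1 lay on the other side of 1. Skeletal muscle markers stood at 4293 CPM in 1cyc and 78.4 CPM in TN endothelial barcodes, with 4 of 6 markers present in each and Myh1 and Ckm at 0 in both. Their part in the endothelial values was not tested. In mural barcodes the summed ratio was 0.865 (0.539 to 1.33), and neither Col5a2 (0.632, 0.121 to 2.12) nor Col8a1 (1.11, 0.408 to 2.59) was 2-fold apart, where 7.37% of 380 genes were higher by this measure and 10.3% lower.

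Genes that fold, export, link, cut and sense collagen were counted from 6 fixed lists of 70 listed genes, against the 3.27% of all genes that led in fibroblasts. Of the folding and modification genes 1 of 15 led in fibroblasts, P4ha1, which hydroxylates proline in the helix. Of the secretion and processing genes 3 of 10 led there, Sec24d of the export coat and the Pcolce and Pcolce2 enhancers of propeptide removal. Of the crosslinking genes 2 of 3 led, Loxl1 and Loxl2. Of the breakdown genes 4 of 8 led, Mmp2, Mmp3, Mmp19 and the inhibitor Timp2, and of the receptors 3 of 5, Ddr1, Ddr2 and Itga11. These leads are given without a counting interval, and several rest on few UMIs in 1cyc. Mmp3, Mmp19 and Ddr1 lay below 38.9 CPM in 1cyc fibroblasts, the level that 3 UMIs give there. Loxl1, Timp2 and Itga11 stood at 51.9 CPM in 1cyc fibroblasts. In 1cyc 3 UMIs equal 75.3 CPM in endothelial and 290 CPM in mural barcodes, so values of 0 there weigh little. Among the genes reported here of the TGF-beta pathway, whose signals raise collagen expression in fibroblasts, Ltbp1, which anchors the latent factor in the matrix, led in fibroblasts. Tgfb1 led in endothelial barcodes and Ltbp2 in adipocytes.

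Between the libraries, the shares of all genes at least 2-fold apart were 6.02% higher and 6.41% lower in fibroblasts, and 4.82% higher and 5.60% lower in adipocytes. In fibroblasts none of 4 folding and 2 crosslinking genes was 2-fold apart. Of 8 secretion genes 1 was higher in 1cyc, of 6 breakdown genes 1 was higher and 2 lower, and of 3 receptors 1 was higher. The count for the TGF-beta list in fibroblasts is not given. The median log2 ratio of these lists in fibroblasts lay between -0.15 for the TGF-beta pathway and 0.52 for the receptors, against 0.07 over all genes. In fibroblasts Mia3, which loads collagen into transport vesicles, stood at 247 CPM in 1cyc and 79.7 CPM in TN, a ratio of 3.09 (1.55 to 6.18). Mmp2, a gelatinase, had a ratio of 2.25 (1.10 to 4.49), and the collagen-binding integrin Itga1 one of 2.14 (0.808 to 5.42). Mmp3, the protease stromelysin, stood at 26.0 CPM in 1cyc and 189 CPM in TN, a ratio of 0.138 (0.0162 to 0.526). Timp2, an inhibitor of these proteases, was also at least 2-fold lower (0.427, 0.109 to 1.22), with an interval that held 1. Among the rest, the TGF-beta effector Smad3 was highest (1.71, 0.866 to 3.25) and Smad4, its partner, lowest (0.619, 0.185 to 1.65).

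In adipocytes 1 of 11 folding genes was higher in 1cyc and 2 lower, and of 9 secretion genes 1 was higher and 1 lower. Of 11 TGF-beta genes 1 was higher and 1 lower, of 3 breakdown genes 1 was lower, of 4 receptors 1 was lower, and the 1 crosslinking gene tested was within 2-fold. The list medians lay between -0.88 for breakdown and 0.08 for secretion on the log2 scale. Ltbp2, a matrix protein related to the TGF-beta binding proteins, stood at 113 CPM in 1cyc and 45.7 CPM in TN, a ratio of 2.48 (1.88 to 3.30). P3h1, a proline hydroxylase, had a ratio of 3.09 (1.26 to 8.26) and Adamts3, a procollagen protease, 2.42 (0.992 to 6.27). At least 2-fold lower were Mmp3 (0.0676, 0.00793 to 0.259), Ddr1 (0.0764, 0.00184 to 0.481), Colgalt2 (0.330, 0.0977 to 0.893), Adamts2 (0.464, 0.277 to 0.751), Tgfb1 (0.484, 0.174 to 1.18) and Ppib (0.484, 0.188 to 1.11). Of the rest, Ltbp3 was highest (1.73, 1.30 to 2.31) and the collagen receptor Ddr2 lowest (0.539, 0.330 to 0.857). Mmp3, Ddr1 and Ddr2 led in fibroblasts, and the fibroblast marker ratios of adipocyte barcodes, with and without Ebf2, stand beside their ratios too.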

How the data were processed

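The authors deposited raw UMI counts for each gene in each barcode. The build was mm10 and the tool Cell Ranger 3, per the submitters' processing notes, with software version 3.1.0 per the file headers. Neither the treatment of intronic reads nor the annotation release is given in the sources used here. Counts of barcodes with under 20% mitochondrial UMIs were summed by class and scaled to CPM over all UMIs of the class. The rules asked for 3 UMIs of the class genes (adipocyte, 4), and a barcode could meet several. Genes with 20 UMIs or more were compared. Intervals at 95% were exact Poisson (CPM), exact conditional binomial (ratios) and Clopper-Pearson (shares), and hold nothing of the spread between mice. PCR and droplet effects are not in them. No p-value was computed, since each condition was 1 library. The rule, lists and alternatives were chosen with earlier results of these data known. Named genes were all collagens with 20 UMIs, and list genes 2-fold apart with the highest and lowest of the rest. One gene of the lists is not reported here.

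Scrublet (scanpy 1.11.5) marked 6 of 4321 1cyc (0.139%) and 10 of 2551 TN barcodes (0.392%), too few to serve as a check, so doublets were left in. The libraries shared 6 barcode sequences. Alternative scalings used edgeR 4.0.16 and DESeq2 1.42.0. Summing and intervals were tested on simulated counts. Positions are from GENCODE M21 (mm10) for all 44 genes.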

Additional observations from a re-analysis of the deposited data

Results flagged for a closer look

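The summed collagen ratio of 1cyc over TN lay on opposite sides of 1 in fibroblasts (1.27) and adipocytes (0.828). The fibroblast interval held 1 with TMM and DESeq2 scaling, and the adipocyte interval held 1 with barcodes that met the adipocyte rule alone. The difference between the classes was not tested, and each side is 1 pooled library per condition. Col8a1 was 5.16-fold in endothelial barcodes and 0.327-fold in adipocytes, which was not tested either, and the endothelial value rests on 2 barcodes of 1cyc.

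Barcodes that met no class rule were outside every comparison. They held summed collagen at 1271 CPM (1134 to 1419) in 1cyc, over 465 barcodes, and at 1017 CPM (929 to 1111) in TN, over 347. Haemoglobin made up 24.1% of their UMIs in 1cyc and 42.0% in TN. Barcodes with 20% or more mitochondrial UMIs held 688 CPM in 1cyc and 1057 CPM in TN.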

How the results depend on the processing

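Of 127 values of the class counts and summed ratios under other settings, 99 stayed close (a count within 1.5 times the reported one, a ratio within its reported 95% interval), 28 moved, and no ratio whose interval excluded 1 crossed it. Of 351 single-gene ratios under these settings, 347 stayed within the reported interval, and none whose interval excluded 1 crossed it. Both totals include the removal of the Scrublet calls, 6 barcodes in 1cyc and 10 in TN, which could hardly move a value. Not crossing 1 does not mean that an interval still excluded 1. The interval of the fibroblast summed ratio held 1 with TMM and DESeq2 scaling, and that of adipocytes with barcodes of one class only. In adipocytes Col4a1 and Col4a2, whose intervals held 1, crossed it with barcodes of one class only. No paired analysis was possible because each condition had 1 library.

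With a mitochondrial limit of 5%, 1 gene led in mural (Col8a1) and 2 in adipocyte barcodes (Col12a1, Col23a1), 0 were 2-fold higher in 1cyc fibroblasts, 5 were lower in 1cyc adipocytes and the adipocyte summed ratio was 0.762. With barcodes of one class only, 0 genes were higher in fibroblasts and the adipocyte ratio was 0.939. Raising each class minimum by 2 UMIs left 1 gene leading in adipocytes (Col12a1). With barcodes of 500 UMIs or more, 6 genes were lower in adipocytes. Totals free of mitochondrial, haemoglobin and class genes gave 0 higher in fibroblasts. The counts of this and the next paragraph are given without the number of collagen genes tested under each setting. Except where stated, the share of all genes called under that setting is not given either. They therefore show how the calls move and do not compare collagens with other genes.

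TMM gave 1 gene leading in adipocytes (Col23a1), 0 higher in fibroblasts, and summed ratios of 1.07 in fibroblasts, 0.499 in mural barcodes and 0.759 in adipocytes. DESeq2 size factors gave 0 higher in fibroblasts and ratios of 1.03, 0.521 and 0.760 for these classes. TMM moved the median log2 ratio of all genes by -0.80 in mural, -0.42 in endothelial and -0.12 in adipocyte barcodes. A minimum of 50 UMIs left 0 lower in fibroblasts. With no minimum, 1 gene led in mural (Col13a1) and 2 in adipocyte barcodes, 6 were higher and 8 lower in fibroblasts, against 22.2% and 32.8% of all genes, and 7 were higher and 7 lower in adipocytes, against 18.8% and 18.2%. Without the mural class, a choice made after seeing the data, 1 gene led in endothelial barcodes and 1 in adipocytes. The cause of these shifts was not tested. Depth limits the mural class of 1cyc most, where 3 UMIs equal 290 CPM.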
